A study of Mus musculus with 44 samples.

Results

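Cholesterol synthesis, uptake and its control by SREBP2 were followed across 30 genes in mouse ovarian follicles treated with perfluorononanoic acid (PFNA), one of the persistent fluorinated chemicals known as PFAS. The genes are the rows whose symbol is in a list of pathway names. All 30 were present among the 22674 genes of the maturation table and the 18274 genes of the ovulation table, and all 30 passed the filter on low values in both. They were divided by role into a mevalonate arm (8 genes), a sterol arm (12 genes), regulators (4 genes) and uptake and storage (6 genes).

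Cholesterol is built from acetyl-CoA. The mevalonate arm makes the isoprenoid farnesyl diphosphate, and the sterol arm joins farnesyl units into squalene, closes the ring and trims lanosterol to cholesterol. When membrane sterol is low, SCAP escorts the transcription factor SREBP2 from the endoplasmic reticulum to the Golgi, where it is cleaved and released to the nucleus. INSIG proteins hold SCAP and SREBP2 back when sterol is high. In the ovary cholesterol is the substrate of all steroid hormones, and granulosa and cumulus cells supply sterol to the oocyte, which makes little of its own.

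RNA sequencing had been done on follicles of wild-type CD-1 mice, an outbred strain. During gonadotropin-dependent maturation 11 control libraries (DMSO, the solvent) were compared with 10 PFNA libraries. During ovulation, 12 control libraries that had received hCG (human chorionic gonadotropin, which triggers ovulation) were compared with 11 libraries that had received hCG and PFNA. Every ovulation library, controls included, was therefore exposed to hCG. The labels give no dose, exposure time, animal age or date, and do not say how follicles were pooled into a library. Nor do they say that libraries of a group came from separate animals, so p-values measure the spread between these libraries, which may be technical.

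The maturation values are TPM, transcript abundances scaled for transcript length to a fixed total in each library, and the reads behind them are unknown. The ovulation values are estimated counts, printed below as CPM (counts scaled to a common library total after TMM normalization), with library totals, in units of 1e+06 counts, of 11.96 to 16.05 in controls and 10.6 to 19.5 with PFNA. Levels were not compared between the tables. In both windows a gene was called when its Benjamini-Hochberg adjusted p over all genes tested was under 0.05, with limma on log2(TPM + 1) in the maturation window and edgeR's quasi-likelihood test in the ovulation window. Granulosa markers were abundant in every library (7 of 7 present in the tables, summed level 30513 to 48989 TPM in maturation controls and 13653 to 36008 TPM with PFNA, and 11506 to 18109 CPM in ovulation controls and 9177 to 15015 CPM with PFNA). The libraries hold whole follicles, so fewer cells of a type and less RNA per cell cannot be told apart in any result below.

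Promoter sequences are shown for 4 members whose transcripts responded differently in the windows. Hmgcs1 and Msmo1 fell in the ovulation window and were not called in the maturation window, Mvk fell in the maturation window only, and Soat1 rose in the ovulation window. SREBP2 binds sterol regulatory elements, often beside the factor NF-Y, whose box reads CCAAT. Each sequence is the 250 bases before the RefSeq transcription start on GRCm38.p6, written 5′ to 3′ on the gene's strand, with matches to either motif in capitals (ATTGG is the NF-Y box on the other strand).
Hmgcs1, chr13:119690101-119690350, plus strand: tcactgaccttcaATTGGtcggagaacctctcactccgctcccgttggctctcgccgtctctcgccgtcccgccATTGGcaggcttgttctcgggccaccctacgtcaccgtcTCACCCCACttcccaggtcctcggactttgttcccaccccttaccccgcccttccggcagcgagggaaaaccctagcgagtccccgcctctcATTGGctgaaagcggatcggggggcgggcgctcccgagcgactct
Msmo1, chr8:64733579-64733828, minus strand: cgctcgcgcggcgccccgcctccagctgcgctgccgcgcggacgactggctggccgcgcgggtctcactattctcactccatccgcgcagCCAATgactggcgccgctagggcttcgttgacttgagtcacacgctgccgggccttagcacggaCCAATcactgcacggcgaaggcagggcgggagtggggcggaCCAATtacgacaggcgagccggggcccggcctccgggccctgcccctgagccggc
Mvk, chr5:114444019-114444268, plus strand: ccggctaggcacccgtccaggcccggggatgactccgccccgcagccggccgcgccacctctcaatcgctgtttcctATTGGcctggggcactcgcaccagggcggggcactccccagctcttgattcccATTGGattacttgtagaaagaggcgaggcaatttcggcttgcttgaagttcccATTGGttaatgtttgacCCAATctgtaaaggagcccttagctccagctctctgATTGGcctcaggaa
Soat1, chr1:156474329-156474578, minus strand: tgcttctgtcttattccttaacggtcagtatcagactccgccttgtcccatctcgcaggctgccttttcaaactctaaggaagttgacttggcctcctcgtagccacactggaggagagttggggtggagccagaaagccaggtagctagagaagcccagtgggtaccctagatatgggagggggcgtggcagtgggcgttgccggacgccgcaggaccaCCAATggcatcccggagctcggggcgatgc

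These 250 bases held 3 NF-Y boxes in Hmgcs1, 3 in Msmo1, 5 in Mvk and 1 in Soat1. The sterol regulatory element was searched as TCACNCCAC on both strands, and the Hmgcs1 promoter held it as TCACCCCAC with its first base at position -137 from the start. It shared no base with an NF-Y box. RefSeq promoters of 300 bases (250 before the start and 50 after) were on hand for 25 of the 30 members, with 31 promoters among them because some genes have several starts. An NF-Y box lay in 23 of these 31 promoters (74.2%), against 37.4% of the 32851 promoters of the whole table. By arm the box lay in 6 of 8 promoters of the mevalonate arm, 10 of 12 of the sterol arm, 3 of 7 of the regulators and 4 of 4 of uptake and storage. Of its 47 matches in members, 30 began within 100 bases before the start, in 20 genes. The string TCACNCCAC lay in 1 of the 31 promoters (3.23%), against 1.24% of all. Only exact matches to it were counted, so a promoter without a match may still hold the element in another form. The promoters of Fdps, Fdft1, Sqle, Stard4 and Npc1 were not analysed here. A match describes letters in this window and not a bound site. The promoters of Soat1, Npc2, Lipa and Nceh1, which rose in the ovulation window, held an NF-Y box, as did those of Hmgcs1, Idi1, Msmo1 and Sc5d, which fell. The promoter of Acat2, which also fell, held none.

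In maturation controls, where TPM allows levels to be set side by side, the module spanned a wide range. Fdps (farnesyl diphosphate synthase) was the most abundant member at 482 ± 53.2 TPM (SD, n = 11). Insig1 followed at 299 ± 43.3 TPM, Msmo1 (methylsterol monooxygenase) at 281 ± 30.1 TPM and Hmgcs1 (HMG-CoA synthase) at 245 ± 37.2 TPM. The SDs of neighbours in this order overlapped from Insig1 through Idi1 (228 ± 45.3 TPM), whereas Fdps lay above them by more than its SD. The least abundant members were Insig2 (12.9 ± 2.50 TPM), Lipa (lysosomal acid lipase, 9.02 ± 0.826 TPM) and Nceh1 (neutral cholesterol ester hydrolase, 6.37 ± 1.13 TPM). The regulator pair was thus unequal, with Insig1 transcripts far more abundant than those of Insig2. The coefficient of variation between control libraries ran from 8.04% for Ggps1 to 24.0% for Acat2, with a median of 15.3% over the 30 members, and the median rose to 21.3% with PFNA.

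In the maturation window many enzymes of the pathway were moderately lower with PFNA, in both of its arms. Of the 30 members 18 fell (16.1% of all genes tested fell) and 1 rose, Lipa (13.3% of all genes rose). The median log2 fold change of the 30 was -0.35, against 0.023 over all genes tested. The enzyme arms held 16 of the 18 declines. The counts were 6 of 8 mevalonate genes, 10 of 12 sterol genes, 1 of 4 regulators and 1 of 6 uptake and storage genes. Few of them were large. Only Mvk and Mvd fell by 2-fold or more (2 of 30 members, against 3.81% of all genes tested), and no member rose that much (0.963% of all genes).

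The steepest declines were in the mevalonate arm. Mvk (mevalonate kinase) lay at 48.9, 67.1 and 81.1 TPM in controls (lowest, median, highest) and at 14.4, 25.2 and 55.2 TPM with PFNA (log2 fold change -1.22, SE 0.18, limma adjusted p = 4.7e-05). PFNA replicates 1 and 2 were the only PFNA libraries within the control range, at 55.2 and 50.8 TPM. Acat2 (cytosolic acetoacetyl-CoA thiolase, the first step) lay at 98.1, 133.8 and 195.0 TPM in controls and at 33.4, 75.8 and 92.7 TPM with PFNA (log2 fold change -0.99, SE 0.17, limma adjusted p = 0.00015). It was the sole member with every PFNA library below every control in this window (1 of 30 members, against 0.788% of all genes tested). Mvd (mevalonate diphosphate decarboxylase) lay at 91.5, 113.2 and 139.4 TPM in controls and at 21.7, 54.0 and 94.6 TPM with PFNA (log2 fold change -1.04, SE 0.19, limma adjusted p = 0.00028). Only PFNA replicate 2 reached the control range, and PFNA replicate 10 was the lowest library.

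The remaining mevalonate genes divided. Pmvk (phosphomevalonate kinase, log2 fold change -0.83), Fdps (-0.78) and Idi1 (isopentenyl diphosphate isomerase, -0.42) fell, with limma adjusted p of 0.00084, 0.00028 and 0.027. Hmgcs1, which makes HMG-CoA, did not pass the test, at 184.4, 241.4 and 299.0 TPM in controls and 162.3, 255.2 and 344.7 TPM with PFNA (log2 fold change -0.01, SE 0.12, limma adjusted p = 0.95). Its PFNA libraries spread on both sides of the controls, with 2 below the lowest and 2 above the highest. Ggps1, which makes the geranylgeranyl diphosphate used on prenylated proteins, did not pass either (log2 fold change 0.0075, limma adjusted p = 0.94).

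**Figure D1:**
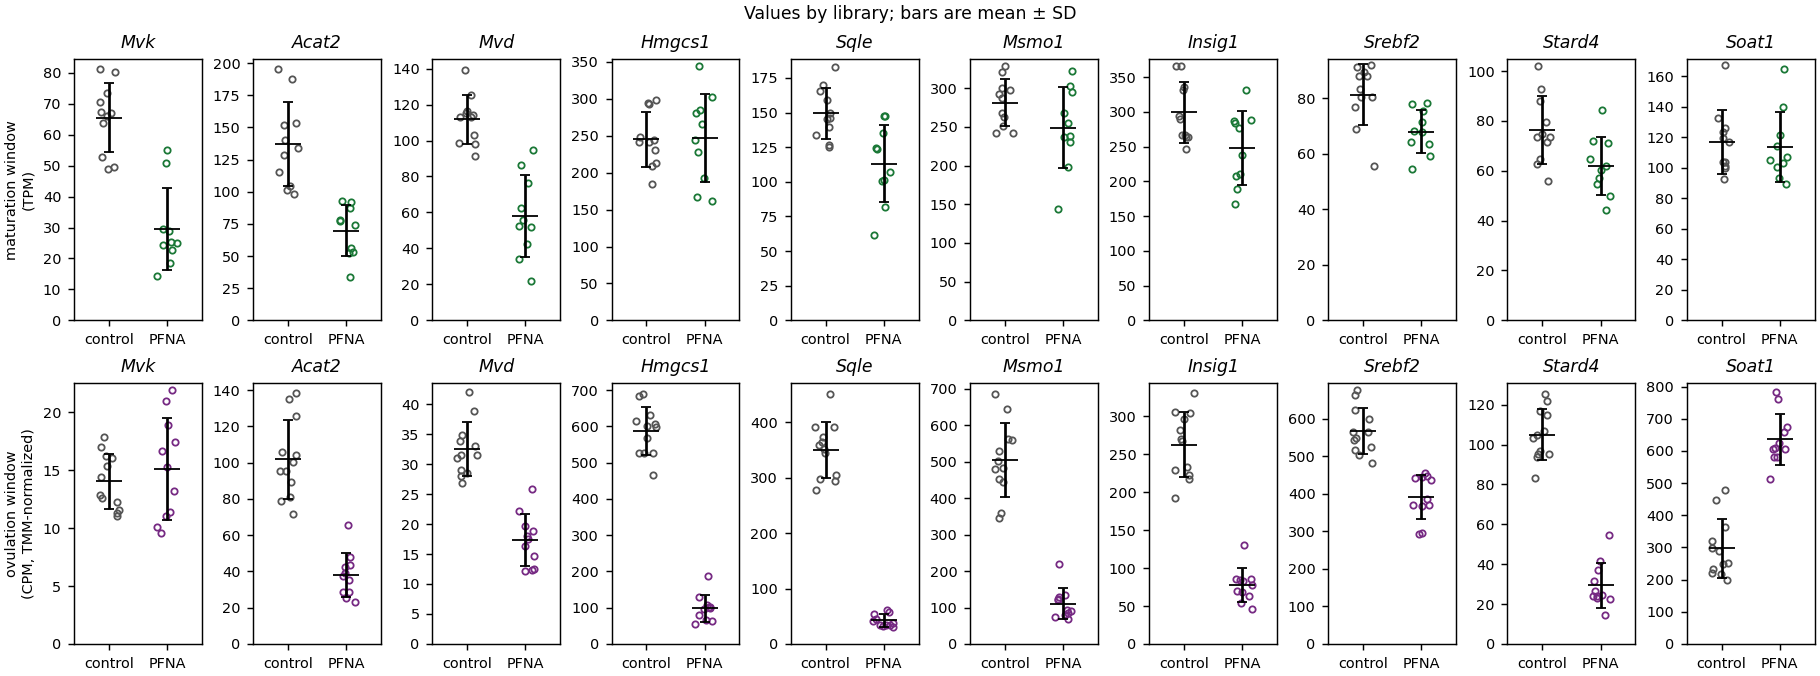
Level of 10 members in each library (open points), in TPM for the maturation window (upper row) and TMM-normalized CPM for the ovulation window (lower row), with the mean and SD of each group as bars and vertical axes from 0. Mvk and Mvd are lower with PFNA in the upper row, whereas Hmgcs1, Sqle, Msmo1, Insig1 and Stard4 leave the control range completely in the lower row and Soat1 rises above it.

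Along the sterol arm the maturation declines were smaller and more even, from -0.67 for Dhcr7 to -0.32 for Lss among the 10 genes that fell. Nsdhl (a sterol dehydrogenase that acts in demethylation) had the smallest p, with 28.7, 37.7 and 44.1 TPM in controls and 16.2, 27.2 and 32.0 TPM with PFNA (log2 fold change -0.57, SE 0.11, limma adjusted p = 0.0004). Lbr, a nuclear envelope protein that is also a sterol reductase, lay at 18.3, 23.4 and 26.2 TPM in controls and 11.4, 15.3 and 23.9 TPM with PFNA (log2 fold change -0.46, SE 0.097, limma adjusted p = 0.0013). PFNA replicates 1, 2 and 5, at 23.9, 21.6 and 18.7 TPM, lay among the controls. Dhcr7, the reductase of the last step, lay at 71.4, 89.1 and 112.1 TPM in controls and 31.3, 61.1 and 76.9 TPM with PFNA (log2 fold change -0.67, SE 0.14, limma adjusted p = 0.0013). In 6 of its 10 PFNA libraries it was below every control.

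Squalene-forming and ring-closing steps fell with them. Fdft1 (squalene synthase) had a log2 fold change of -0.41, Sqle (squalene epoxidase) of -0.43, Lss (lanosterol synthase) of -0.32 and Cyp51 (lanosterol demethylase) of -0.42. Tm7sf2, the second sterol reductase, fell by 0.59, the isomerase Ebp by 0.41 and the desaturase Sc5d by 0.39 on the log2 scale. The limma adjusted p of these 7 genes ran from 0.0047 for Fdft1 to 0.028 for Lss. The values of Msmo1 (-0.20, limma adjusted p = 0.17) and Hsd17b7, a sterol ketoreductase (-0.08, limma adjusted p = 0.59), did not pass.

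Among the regulators Srebf2, the gene of SREBP2, fell slightly in the maturation window. It lay at 55.5, 83.2 and 91.7 TPM in controls and at 54.5, 67.9 and 78.2 TPM with PFNA (log2 fold change -0.25, SE 0.084, limma adjusted p = 0.029). The groups overlapped, and the lowest control (replicate 11) was close to the lowest PFNA library. Insig1 lay at 246.9, 290.3 and 366.0 TPM in controls and 167.0, 257.1 and 331.0 TPM with PFNA (log2 fold change -0.29, limma adjusted p = 0.057), and Scap gave -0.26 (limma adjusted p = 0.067). Insig2 lay at 10.2, 11.6 and 17.9 TPM in controls and 8.63, 13.1 and 16.7 TPM with PFNA (log2 fold change 0.0060, limma adjusted p = 0.98). These 3 regulators did not pass the test.

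Uptake and storage genes moved little. Stard4, a carrier that moves free sterol between membranes, lay at 55.9, 73.7 and 101.9 TPM in controls and 44.4, 61.2 and 84.3 TPM with PFNA (log2 fold change -0.30, SE 0.11, limma adjusted p = 0.046). Lipa, which frees cholesterol from esters in lysosomes, lay at 7.72, 9.04 and 10.2 TPM in controls and 6.97, 11.3 and 16.7 TPM with PFNA (log2 fold change 0.27, SE 0.096, limma adjusted p = 0.037). It was above every control in 8 of 10 PFNA libraries, the exceptions being replicates 1 and 2. The log2 fold changes of Npc1 (0.12) and Npc2 (-0.01), which export lysosomal cholesterol together, of Soat1 (-0.04), which esterifies cholesterol for storage, and of Nceh1 (0.17) did not pass (limma adjusted p from 0.24 to 0.91).

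PFNA libraries of the maturation window differed among themselves in both the pathway and in oocyte transcripts. PFNA replicate 10 was the lowest PFNA library for 16 of the 18 members that fell. Its mevalonate score, the mean over the genes of the arm of log2(TPM + 1) minus the control mean, was -1.402. In the mevalonate and sterol arms PFNA replicates 1 and 2 were nearest to the controls, with mevalonate scores of -0.26 and -0.27 just under the lowest control (-0.24) and sterol scores of -0.12 and -0.10 inside the control range, which reached -0.23 and also held replicate 6 (-0.14). Over all 30 members replicate 6 was nearest (-0.10), whereas replicates 1 and 2 were the lowest PFNA libraries in uptake and storage (-0.26 and -0.25). Without replicate 10, an alternative chosen after seeing the data, 13 members fell and none rose. That fit called 2224 genes lower and 1456 higher in all, against 2206 and 1824 with all libraries. The calls of Idi1, Lss, Cyp51, Srebf2, Stard4 and Lipa were lost, with limma adjusted p from 0.052 to 0.088. Without replicates 1 and 2, 19 members fell and 2 rose, in a fit that called 2601 genes lower and 2600 higher in all. Stard4 lost its call, whereas Insig1 (-0.35) and Scap (-0.29) fell and Nceh1 (0.26) rose.

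Oocyte markers also differed among the PFNA libraries of this window, in another order than the pathway scores. All 9 of 9 tested fell (16.1% of all genes tested fell), none was at 0 in every library, and their summed level was 119 to 185 TPM in controls. With PFNA it was 0.268 to 7.37 TPM in replicates 3 to 9, 127 and 113 TPM in replicates 1 and 2, and 322 TPM in replicate 10. Replicate 10 thus combined the highest oocyte level with the lowest cholesterol synthesis levels. The log2 of the oocyte marker sum was used as a covariate in limma, a scale on which replicates 3 to 9 lay far below every control. The covariate and PFNA are therefore hard to separate. With it, 7 members fell (Acat2, Mvk, Mvd, Fdps, Fdft1, Nsdhl and Dhcr7) and none rose, in a fit that called 496 genes lower and 319 higher in all. The Mvk value was then -0.99, and that of Lbr -0.19 in place of -0.46. Granulosa markers were lower too (5 of 7 fell, against 16.1% of all genes tested), and their part in these results was not tested. Their mean summed level, most of it from Inha, was 39905 ± 4630 TPM (SD, n = 11) in controls and 25793 ± 6691 TPM (SD, n = 10) with PFNA.

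**Figure D2:**
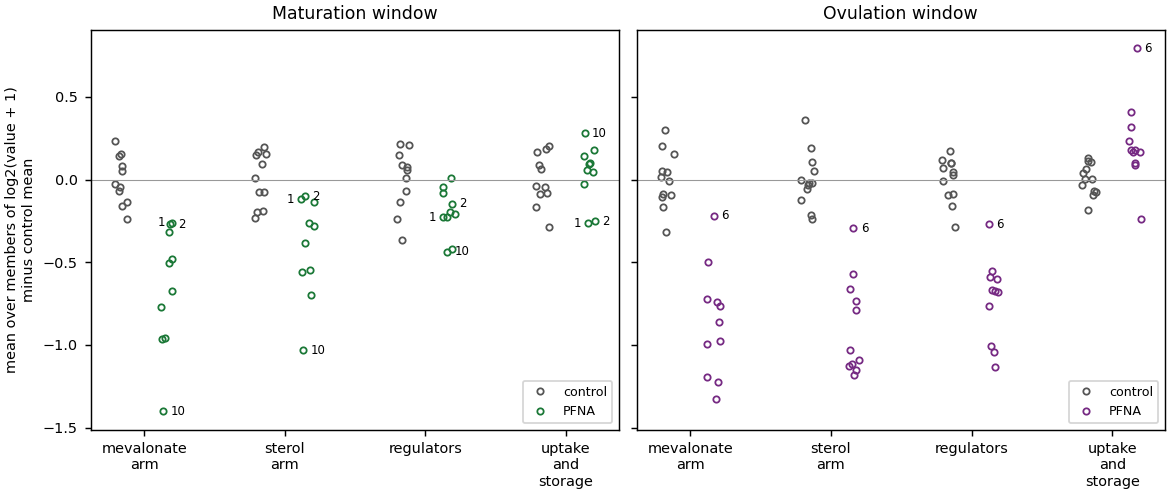
Mean over the genes of each arm of log2(value + 1) minus the control mean, in each library (vertical axis, log2 units) for controls (grey) and PFNA (coloured), by arm (horizontal axis) and window, with the numbered PFNA replicates named in the text. PFNA replicate 10 is lowest in both enzyme arms of the maturation window at -1.402 and -1.03, and replicate 6 is the highest of the PFNA libraries in every arm of the ovulation window.

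In the ovulation window the response was larger and split the module by role. Synthesis enzymes, Srebf2 and both INSIG genes fell, Sqle, Hmgcs1 and Msmo1 the most (means 8.28-fold, 5.94-fold and 4.56-fold lower), while the lysosomal, esterifying and ester-cleaving genes rose. Of the 30 members 18 fell (35.2% of all genes tested fell) and 7 rose (38% of all genes rose), so that calls in themselves were common in this window. The median log2 fold change of the 30 was -0.48, against 0.039 over all genes tested. The falls were 6 of 8 in the mevalonate arm, 8 of 12 in the sterol arm, 3 of 4 regulators and 1 of 6 uptake and storage genes. The other 5 uptake and storage genes rose, together with Pmvk and Tm7sf2.

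Counts by size and by overlap were read against all genes in the same way. At least 2-fold falls were seen in 10 of 30 members (9.02% of all genes tested), and a 2-fold rise in 1 of 30, Soat1 (18.1% of all genes). Every PFNA library lay below every control for 12 of 30 members (14.1% of all genes tested) and above every control for 1 of 30, again Soat1 (11.9% of all genes). In the maturation window no member lay above every control (0.489% of all genes).

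Squalene epoxidase showed the deepest fall of the module. Sqle (chr15:59315077-59331192, plus strand, GRCm38), which oxidises squalene before ring closure, lay at 278.8, 356.0 and 450.7 CPM in controls and at 31.3, 38.4 and 62.1 CPM with PFNA. It fell steeply (log2 fold change -3.05, SE 0.13, edgeR adjusted p = 1.9e-16), and the highest PFNA library was far below the lowest control. Msmo1 (chr8:64718139-64733792, minus strand) lay at 345.3, 491.9 and 686.1 CPM in controls and 68.0, 93.1 and 220.3 CPM with PFNA (log2 fold change -2.19, SE 0.17, edgeR adjusted p = 3.1e-11). Sc5d lay at 101.8, 130.6 and 161.3 CPM in controls and 23.1, 34.2 and 64.3 CPM with PFNA (log2 fold change -1.83, SE 0.13, edgeR adjusted p = 4.5e-12). In Msmo1 and Sc5d the highest PFNA value came from replicate 6, and neither overlapped the controls.

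Among the other sterol genes Cyp51 fell by 1.44 and Lss by 1.02 on the log2 scale, both without overlap between groups (edgeR adjusted p = 2.8e-08 and 5.5e-09). Smaller declines were measured for Nsdhl (-0.57), Lbr (-0.51) and Fdft1 (-0.31), with edgeR adjusted p of 0.00034, 8.8e-06 and 0.0042. Tm7sf2 rose (log2 fold change 0.96, SE 0.14, edgeR adjusted p = 7.4e-07), with 13.5, 16.8 and 31.5 CPM in controls and 24.4, 33.3 and 57.8 CPM with PFNA. Lbr and Tm7sf2, which catalyse the same reduction, thus moved in opposite directions. The values of Hsd17b7 (-0.28), Ebp (0.09) and Dhcr7 (-0.10) did not pass (edgeR adjusted p = 0.11, 0.61 and 0.53).

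At the entry of the mevalonate arm Hmgcs1 (chr13:119690379-119708260, plus strand), whose promoter is printed above, lay at 466.0, 599.2 and 688.8 CPM in controls and 54.0, 100.2 and 188.2 CPM with PFNA (log2 fold change -2.57, SE 0.16, edgeR adjusted p = 3.2e-13). Idi1 lay at 218.4, 254.8 and 378.5 CPM in controls and 33.6, 69.4 and 160.8 CPM with PFNA (log2 fold change -1.91, SE 0.20, edgeR adjusted p = 5.8e-09). Acat2 lay at 71.9, 98.0 and 138.4 CPM in controls and 22.9, 37.5 and 65.5 CPM with PFNA (log2 fold change -1.42, SE 0.15, edgeR adjusted p = 6.8e-09). In all 3 genes the groups did not overlap and PFNA replicate 6 was the highest PFNA library.

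The kinases between them behaved differently. Mvk, the member with the steepest fall in the maturation window, had 11.05, 13.6 and 17.9 CPM in ovulation controls and 9.62, 15.3 and 22.0 CPM with PFNA, which overlapped on both sides (log2 fold change 0.11, edgeR adjusted p = 0.50). Pmvk rose (log2 fold change 0.88, SE 0.16, edgeR adjusted p = 2e-05), from 5.78, 10.9 and 20.7 CPM in controls to 12.1, 21.5 and 27.5 CPM with PFNA. Mvd fell by 0.91, Ggps1 by 0.45 and Fdps by 0.42 on the log2 scale (edgeR adjusted p = 1.4e-07, 0.00013 and 0.00015).

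The regulators fell together, apart from Scap (log2 fold change 0.10, edgeR adjusted p = 0.17). Insig1 lay at 192.5, 268.4 and 330.4 CPM in controls and 45.9, 77.3 and 131.1 CPM with PFNA (log2 fold change -1.77, SE 0.13, edgeR adjusted p = 1.3e-11). Srebf2 lay at 483.5, 557.1 and 677.6 CPM in controls and 292.8, 387.6 and 455.6 CPM with PFNA (log2 fold change -0.54, SE 0.081, edgeR adjusted p = 2e-06). All 11 PFNA libraries were below every control in both genes. Insig2, the second retention protein, lay at 42.5, 60.9 and 81.0 CPM in controls and 27.3, 39.3 and 63.5 CPM with PFNA (log2 fold change -0.67, SE 0.13, edgeR adjusted p = 4e-05). Its groups overlapped, with only 9 of 11 PFNA libraries below every control.

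Of the 6 members in uptake and storage, which act on sterol inside the cell, 5 rose and Stard4 fell. Stard4 lay at 83.4, 104.0 and 125.5 CPM in controls and 14.6, 24.5 and 54.9 CPM with PFNA (log2 fold change -1.83, SE 0.15, edgeR adjusted p = 1.1e-10), so that it moved as the synthesis enzymes did. Soat1 (chr1:156424525-156474331, minus strand), the sterol esterifying enzyme, lay at 199.1, 270.1 and 477.6 CPM in controls and 513.0, 610.3 and 783.0 CPM with PFNA. Its mean was 2.14-fold higher (log2 fold change 1.10, SE 0.13, edgeR adjusted p = 3.3e-08) and the groups did not overlap. Nceh1, which cleaves cholesterol esters in the cytoplasm, rose by a log2 fold change of 0.82 (edgeR adjusted p = 0.00025). Npc2 rose by 0.59, Lipa by 0.41 and Npc1 by 0.34 on the same scale (edgeR adjusted p = 4e-06, 0.0085 and 0.00021). Both the esterifying and the ester-cleaving genes were therefore higher.

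**Figure D3:**
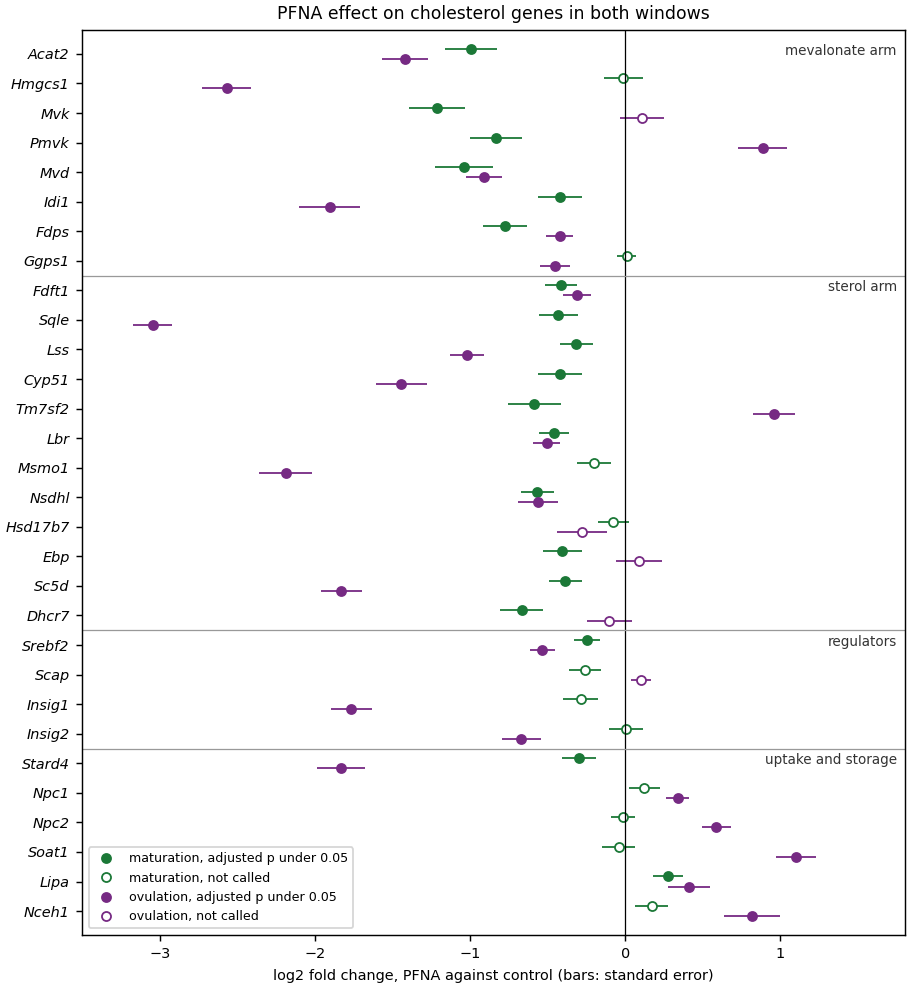
Log2 fold change of each member with PFNA against control (horizontal axis) with its standard error as a bar, grouped by arm, for the maturation window (green, limma) and the ovulation window (purple, edgeR), filled where the adjusted p is under 0.05. Maturation values lie between -1.22 and 0.27, whereas ovulation values run from -3.05 for Sqle to 1.10 for Soat1.

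PFNA replicate 6 of the ovulation window was nearest to the controls in the enzyme arms and highest in uptake and storage. It was the highest PFNA library for 14 of the 18 members that fell, with a mevalonate score of -0.22 (lowest control -0.32) and a sterol score of -0.29 (lowest control -0.24). Its uptake and storage score was 0.79, the highest of all libraries. PFNA replicate 2 was the lowest library for 10 of the 18. Without replicate 6, an alternative chosen after seeing the data, 20 members fell, the added ones being Hsd17b7 (-0.40) and Dhcr7 (-0.25), and 7 rose. That fit called 4862 genes lower and 5167 higher in all, against 4736 and 5101 with all libraries. Variation between controls was 7.64% to 36.0% as a coefficient of variation (median 14.1%), and its median with PFNA was 26.3%.

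Markers of several cell types changed in this window, where 38% of all genes tested rose and 35.2% fell. Of the 7 granulosa markers 4 rose and 2 fell. The risers included Fshr, the receptor of follicle-stimulating hormone (4.61-fold higher in the mean), Cyp19a1, the aromatase (4.71-fold), and Nr5a2 (2.55-fold). Each of these lay above every control in all PFNA libraries, as did 11.9% of all genes tested. The 2 that fell, Inha (log2 fold change -0.41) and Inhba (-0.33), were the most abundant of the list. The mean granulosa sum was 14330 ± 2213 CPM (SD, n = 12) in controls and 11653.5 ± 1721 CPM (SD, n = 11) with PFNA. Oocyte markers gave a summed level of 64.8 to 278 CPM in controls and 8.14 to 414 CPM with PFNA, with 4 of 9 higher. The lowest, 8.14 CPM, was PFNA replicate 5. With the log2 of the oocyte marker sum as a covariate in edgeR, and also without replicate 5, the same 18 members fell and the same 7 rose. Endothelial markers were higher (4 of 4 rose, summed level 30.05 to 107 CPM in controls and 35.0 to 291 CPM with PFNA). Immune markers spanned 1.35 to 98.2 CPM in controls and 2.79 to 132 CPM with PFNA (1 of 5 rose), and theca markers 65.2 to 353 CPM and 152 to 364 CPM (3 of 5 rose and 1 fell). None was at 0 in every library, and the part of granulosa, endothelial, immune and theca cells in these results was not tested.

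**Figure D4:**
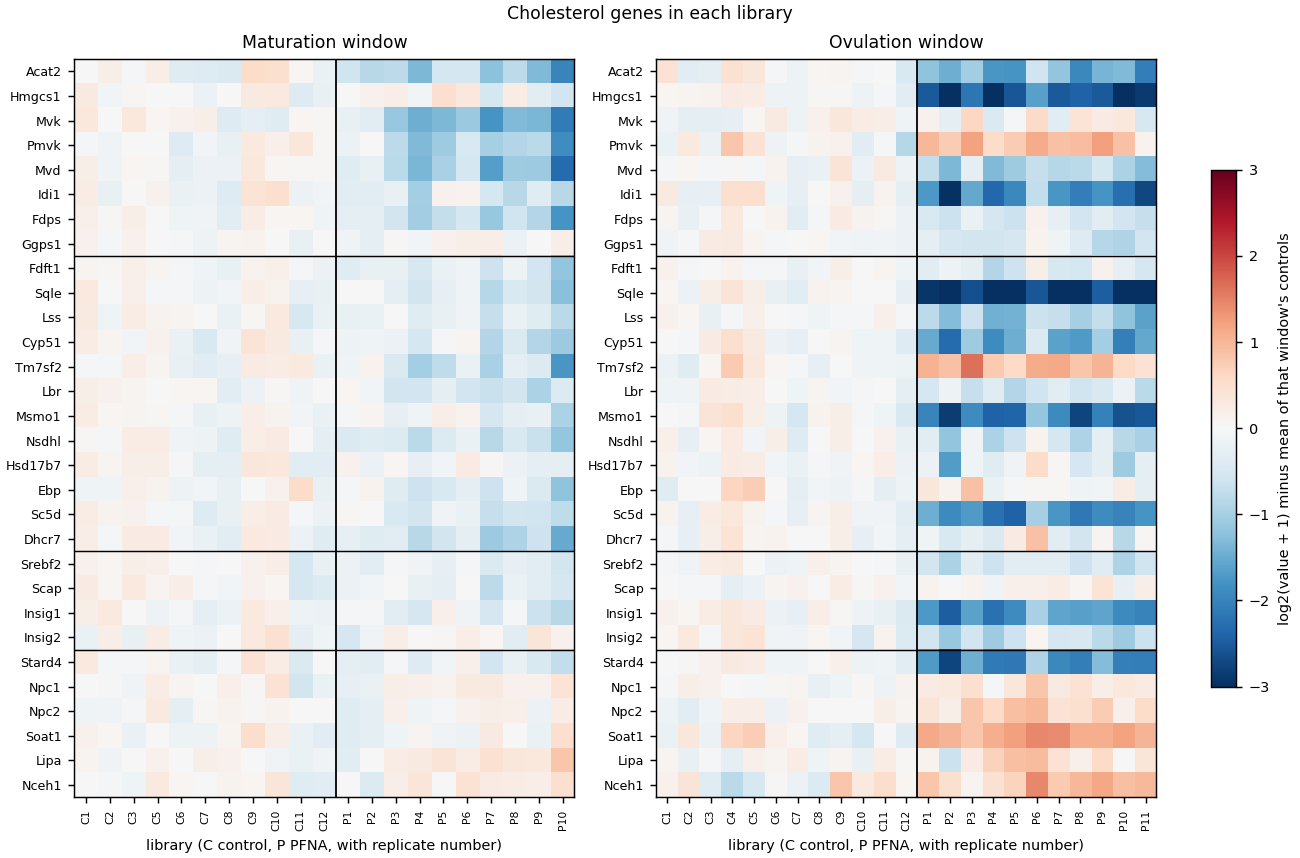
Log2(value + 1) minus the mean of that window's controls for the 30 members (rows, with lines between arms) in every library (columns, C control and P PFNA with the replicate number), on a colour scale from -3 to 3 log2 units at whose ends values are held. Most enzyme genes are blue in PFNA replicates of the maturation window, palest in replicates 1 and 2, and in the ovulation window deep blue for Hmgcs1, Sqle and Msmo1 contrasts with red for Pmvk, Tm7sf2, Soat1 and Nceh1.

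Set side by side, 13 of 30 members fell in both windows (6.01% of the 11215 genes tested in both). Lipa, 1 of 30, rose in both (6.06% of those genes), a call that its maturation values lost in 5 of 8 alternatives. Pmvk and Tm7sf2, 2 of 30, fell in the maturation window and rose in the ovulation window (7.64%). A further 5 members fell in the ovulation window alone by the threshold (Hmgcs1, Ggps1, Msmo1, Insig1 and Insig2, where 26.9% of those genes did), and 4 rose there alone (Npc1, Npc2, Soat1 and Nceh1, where 22.2% did). Mvk, Ebp and Dhcr7 fell by the threshold in the maturation window alone (4.23%), and Hsd17b7 and Scap passed in neither (18%). Passing in only 1 window does not show a difference, so the PFNA effects were compared directly, as the ovulation effect on log2(CPM + 1) minus the maturation effect on log2(TPM + 1).

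The effect differed between the windows for 21 of 30 members, close to the background, since it differed for 67.7% of the 11215 genes tested in both. It was lower in the ovulation window for 12 members and higher for 9. Hmgcs1 and Sqle had the widest gaps, each with a difference of -2.6 log2 units (-2.62 with SE 0.19 for Hmgcs1 and -2.61 with SE 0.17 for Sqle, limma adjusted p = 6.2e-16 and 1.8e-17). Pmvk (1.69), Tm7sf2 (1.501) and Mvk (1.28) led in the other direction. All 4 regulators differed, Insig1 by -1.497, Insig2 by -0.68, Srebf2 by -0.29 and Scap by 0.36. Acat2 (-0.44, limma adjusted p = 0.076), Mvd (0.14) and Nsdhl (-0.03) fell in both windows, and their differences did not pass. The windows are separate tables with their own controls and different gene models, so a batch and the window cannot be told apart.

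**Figure D5:**
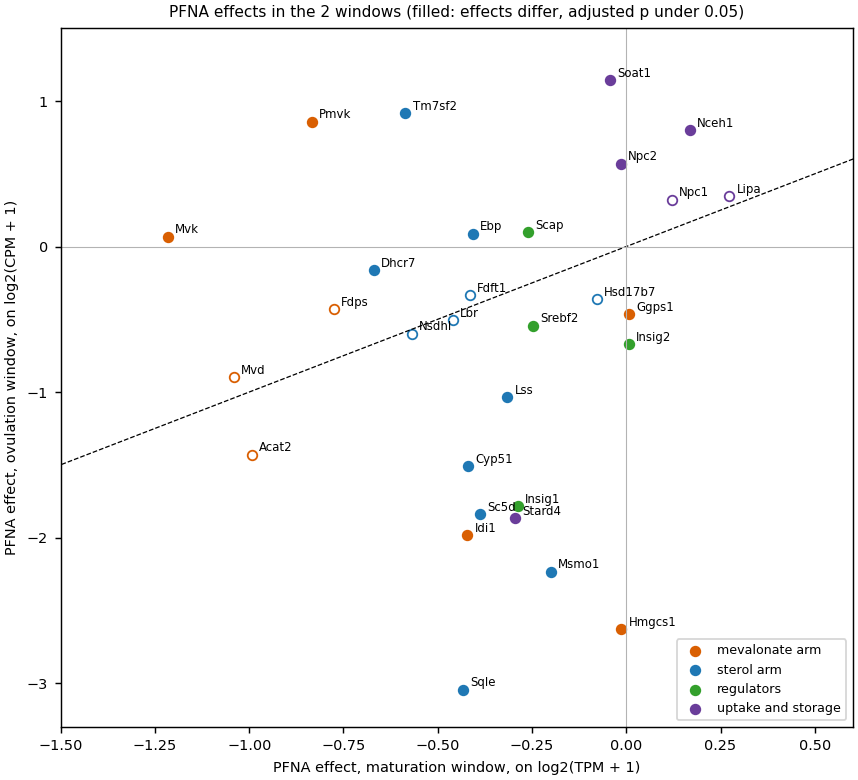
PFNA effect on each member in the maturation window (horizontal axis, log2(TPM + 1) scale) and in the ovulation window (vertical axis, log2(CPM + 1) scale), coloured by arm and filled where the effects differ with an adjusted p under 0.05, with a dashed line of equal effects. Hmgcs1, Sqle and Msmo1 lie far below the line and Pmvk, Tm7sf2, Mvk and Soat1 above it.

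Other genes of the pathway were taken from a list of 22 (SREBP processing, sterol-dependent degradation, sterol transport and lipoprotein receptors). In the maturation window 21 were tested, of which 7 fell, 1 rose and the median log2 fold change was -0.03. Among all genes 16.1% fell and 13.3% rose. Lrp8, an apolipoprotein E receptor, fell from 4.37, 6.88 and 12.1 TPM in controls to 0.453, 1.44 and 5.15 TPM with PFNA (log2 fold change -1.67, SE 0.20, limma adjusted p = 8.5e-06). Tmem97, a binding partner of the lysosomal exporter Npc1, fell by 1.05 (limma adjusted p = 4.5e-05), and Pgrmc1, a sterol-binding membrane protein, rose by 0.42 on the log2 scale. In the ovulation window 14 of 22 fell and 5 rose, with a median of -0.23. These shares compare with 35.2% lower and 38% higher among all genes. Aacs, which makes acetoacetyl-CoA from ketone bodies, fell from 100.1, 116.2 and 138.3 CPM to 27.6, 46.5 and 52.9 CPM with no overlap (log2 fold change -1.42, SE 0.090, edgeR adjusted p = 4.3e-13). Pgrmc1 rose by 0.80 and Osbp, which exchanges sterol for a phosphoinositide at the Golgi, by 0.43. Gramd1b, which carries plasma membrane cholesterol to the endoplasmic reticulum, fell by 1.15 on the log2 scale (edgeR adjusted p = 8.1e-11).

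The lipoprotein receptors of that list, through which cholesterol enters the cell, changed in both directions in the ovulation window. They were singled out after their values were seen. Scarb1, which takes up cholesterol esters from high-density lipoprotein, lay at 1096, 1392 and 2290 CPM in controls and 345.5, 460.9 and 691.0 CPM with PFNA. All 11 PFNA libraries were below every control (log2 fold change -1.66, SE 0.14, edgeR adjusted p = 8.4e-11). Vldlr fell by 0.51 (edgeR adjusted p = 8.2e-05), Lrp1 rose by 0.63 (edgeR adjusted p = 1.4e-05) and Lrp8 gave 0.35, which did not pass (edgeR adjusted p = 0.065). In the maturation window the log2 fold changes of Scarb1 (-0.18), Vldlr (0.04) and Lrp1 (0.01) did not pass (limma adjusted p = 0.32, 0.90 and 0.97). Lrp8 fell there (log2 fold change -1.67, limma adjusted p = 8.5e-06).

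Isoprenoids made by the mevalonate arm also feed protein prenylation, dolichol and coenzyme Q, and a list of 13 such users was examined. In the maturation window 11 were tested, 2 fell (Rce1, -0.29, and Coq2, -0.21) and 1 rose (Fnta, 0.23), with a median of -0.06, where 16.1% of all genes fell and 13.3% rose. In the ovulation window 6 of 13 fell and 2 rose, with a median of -0.15, where 35.2% of all genes fell and 38% rose. Icmt, which methylates prenylated proteins, fell by 0.96 (edgeR adjusted p = 5.7e-13) and Nus1, a dolichol synthesis subunit, by 0.34. Coq2, which attaches the isoprenoid tail of coenzyme Q, rose by 0.95, and Fntb, a farnesyltransferase subunit, by 0.21.

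Annotated exons of 11 of the 30 members overlap another gene in GENCODE M21, and the use of strand in counting is not given in the sources used here, so reads in shared bases cannot be assigned. Tm7sf2 shares 532 of 4403 exonic bases with Vps51 on the same strand. Vps51 had a log2 fold change of 0.01 in the maturation window (limma adjusted p = 0.85) and 0.35 in the ovulation window (edgeR adjusted p = 0.00017). Its part in the Tm7sf2 values was not tested. Fdps shares 1124 of 4208 bases with Gm43738 on the same strand, and Fdft1 shares 774 of 4227 bases with Ctsb on the other strand. Hmgcs1 shares 557 of 4594 bases with Gm48342 on the other strand. The other 7 are Idi1, Ggps1, Lss, Cyp51, Lbr, Scap and Npc1. Of the 10 members with falls of 2-fold or more in the ovulation window, Hmgcs1, Idi1, Cyp51 and Lss share bases in these gene models, whereas Acat2, Sqle, Msmo1, Sc5d, Insig1 and Stard4 share none. The ovulation counts rest on other models, in which the start of only 7 of the 30 members was the same, so their overlaps may differ.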

How the data were processed

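Poly-A RNA sequencing was analysed for 44 libraries in 4 groups, assigned from the labels. Per the submitters' processing notes, Bowtie2, HISAT2 and Partek were used; versions, build, annotation and strand use are not given in the sources used here. In the maturation table the authors deposited TPM values, recognised from the values (each library sums to 1000000, and 82.6% of values are not whole within 1e-06). The ovulation values the authors deposited are estimated counts, of which 18.3% were not whole, and they were rounded. A column differing by a letter from the title of maturation control replicate 6 was taken as that sample. Unused per-sample columns numbered 0. Gene starts matched GENCODE M21 for 99.39% of symbols in the maturation table and 37.2% in the ovulation table; coordinates are from the former.

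The maturation window was fitted with limma 3.58.1 (trend, robust) on log2(TPM + 1) for genes averaging 1 TPM or more, a scale that understates changes of low genes. The ovulation window was fitted with edgeR 4.0.16 in R 4.3.3 (filterByExpr, TMM, robust quasi-likelihood). Standard errors of edgeR folds are the log2 fold divided by the root of its F statistic. Effects were compared between windows with limma in each table, using CPM in the ovulation window, and Satterthwaite degrees of freedom. Both procedures were tested on simulated data. The members and lists were chosen with earlier results of these data known. Each arm's called members with the smallest p (up to 3 in the enzyme arms and 2 in the others), with Srebf2, Insig1 and Insig2, are given by library. Mvk, Hmgcs1, Pmvk, Tm7sf2 and the granulosa markers named were added after their values were seen. Of the context lists the 2 called genes with the smallest p in each direction could be named, and some planned genes of these lists are not reported here. Alternatives were DESeq2 1.42.0, other scalings, filters, a pseudocount of 0.1, an oocyte covariate, a replicate block and omitted libraries. The red blood cell markers were not analysed here.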

Additional observations from a re-analysis of the deposited data

Results flagged for a closer look

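The PFNA effect differed between the windows for 21 of the 30 members (limma in each table, difference tested per gene, adjusted p under 0.05), a share near the 67.7% of all genes tested in both. All values here are the ovulation effect minus the maturation effect on log2 scales. In the mevalonate arm the differences were -2.62 for Hmgcs1, -1.56 for Idi1 and -0.47 for Ggps1, and 1.69 for Pmvk and 1.28 for Mvk. In the sterol arm they were -2.61 for Sqle, -2.03 for Msmo1, -1.45 for Sc5d, -1.09 for Cyp51 and -0.72 for Lss, and 1.501 for Tm7sf2, 0.51 for Dhcr7 and 0.49 for Ebp. Among the regulators they were -1.497 for Insig1, -0.68 for Insig2 and -0.29 for Srebf2, and 0.36 for Scap. In uptake and storage they were -1.57 for Stard4, and 1.19 for Soat1, 0.63 for Nceh1 and 0.58 for Npc2. A search for a library standing far from the rest of its group covered 34 values of the maturation PFNA group, of which chance alone would mark 1.7, and found 0. The other 3 groups hold more than 10 libraries and were not searched.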

How the results depend on the processing

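In the ovulation window the same 18 members fell and the same 7 rose under all alternatives run except without PFNA replicate 6, where 20 fell. In the maturation window the count that fell was 18 with a pseudocount of 0.1, 17 with no filter on low values, 19 with median-ratio scaling, 18 without control replicate 6, 19 without PFNA replicates 1 and 2, 13 without PFNA replicate 10 and 7 with the oocyte covariate. In the same order 2215, 2495, 2455, 2083, 2601, 2224 and 496 of all genes fell (2206 in the main fit). Lipa was the single rise, and its call was lost with no filter, with the oocyte covariate, without control replicate 6 and without PFNA replicate 10 (0 rose in each), while 2 rose without PFNA replicates 1 and 2. The cause of these moves was not tested. Same-numbered libraries shared little deviation (correlations of -0.14 to 0.17 over 9 maturation pairs and -0.19 to 0.073 over 11 ovulation pairs), and the main fits did not pair them. The labels do not say whether a shared number marks a shared animal or day. With a replicate block 14 members fell and 0 rose in the maturation window, and 18 fell and 7 rose in the ovulation window. Over all genes the block fits called 1855 lower and 1036 higher in the maturation window, and 4641 and 4657 in the ovulation window. Small uncalled maturation values changed sign: Ggps1 to -0.015 with median-ratio scaling, -0.045 with the oocyte covariate, -0.0077 with the replicate block and -0.013 without PFNA replicate 10 (0.0037 without control replicate 6); Insig2 to -0.015, -0.12, -0.042 and -0.0090 under the same settings and to -0.0058 without control replicate 6; Npc2 to 0.062 without PFNA replicates 1 and 2 and 0.00021 with the replicate block; Soat1 to 0.031 without PFNA replicates 1 and 2; and Hmgcs1 to 0.049 without PFNA replicate 10 (-0.014 without control replicate 6). Without PFNA replicates 1 and 2 the uncalled differences between windows changed sign for Lbr (0.065), Nsdhl (0.012) and Lipa (-0.037). The reads behind the TPM values are unknown, so no limit from depth could be set for them.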
